A study of Mus musculus with 6 samples.

Results

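The genes described here encode enzymes of glycolysis, from the hexokinases that trap glucose in the cell to lactate dehydrogenase A. They are *Hk1*, *Hk2*, *Pfkl*, *Pfkp*, *Aldoa*, *Gapdh*, *Pgk1*, *Eno1*, *Pkm* and *Ldha*, and were found in the deposited table by gene symbol, 10 rows of 28987. Their transcripts were measured by RNA-seq in EGFP+ cells that had been sorted from heart ventricles 4 weeks after TAC (transverse aortic constriction), surgery that narrows the aorta and so loads the left ventricle with pressure. All mice carried a tamoxifen-inducible Cre recombinase (MerCreMer) inserted into the *Postn* locus and a Cre-dependent eGFP reporter in the *Rosa26* locus. The EGFP+ cells are therefore those in which the *Postn* locus was active during tamoxifen treatment, as in fibroblasts activated by injury. The control group (3 libraries) carried no further modification that the labels name, and the Hsp47-deleted group (3 libraries) was in addition Hsp47 flox/flox, so that the same Cre removes *Hsp47*, which encodes a collagen chaperone of the endoplasmic reticulum. Per the labels, mice of both groups were 8 to 10 weeks old at TAC and received tamoxifen, injected at 100 mg/kg and fed in chow at 40 mg/kg. The study's methods give other doses. Control replicates 3 and 4 were sequenced in a first run, and control replicate 2 and Hsp47-deleted replicates 1, 2 and 3 in a second run. Values are listed below in the order of control replicates 3, 4 and 2, followed by Hsp47-deleted replicates 1, 2 and 3. The labels do not say whether each library came from its own animal, so that p-values measure the spread between these libraries.

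Glycolysis converts glucose to pyruvate in the cytosol, yields ATP without oxygen and feeds side branches that make ribose, serine, glycerol and sugar nucleotides. The hexokinases and the phosphofructokinases catalyze its regulated early steps, *Aldoa* splits the sugar, *Gapdh* and *Pgk1* carry out the oxidation and the first ATP-forming step, and *Eno1* and *Pkm* lead to pyruvate. *Ldha* reduces pyruvate to lactate, which regenerates NAD+ for *Gapdh*. In fibroblasts that become matrix-producing myofibroblasts, glycolysis is known to increase, and many of its genes are targets of the hypoxia-inducible factor HIF-1, which binds a short core motif.

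The stretch of 250 bases before the annotated start is shown for 5 of the enzymes (RefSeq, GRCm38.p6, 5′ to 3′ on the strand of the gene), because these genes differ in how their transcripts behaved across the libraries. In the values as deposited, *Hk1* and *Aldoa* are among the enzymes with lower values in the first-run controls. *Hk2* and *Pgk1* had their lowest deposited value in the control of the second run, and *Ldha* varied least. Capitals mark each ACGTG, a form of that core, read on either strand, so that matches that share letters appear as 1 longer run. The other form searched, again on both strands, was GCGTG, which is not marked.
*Hk1*, chr10:62379909-62380158, minus strand: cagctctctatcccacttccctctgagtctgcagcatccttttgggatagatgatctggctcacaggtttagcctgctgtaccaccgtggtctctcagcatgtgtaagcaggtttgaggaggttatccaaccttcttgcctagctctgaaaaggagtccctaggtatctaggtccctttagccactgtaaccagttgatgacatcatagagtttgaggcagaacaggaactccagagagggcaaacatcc
*Hk2*, chr6:82774455-82774704, minus strand: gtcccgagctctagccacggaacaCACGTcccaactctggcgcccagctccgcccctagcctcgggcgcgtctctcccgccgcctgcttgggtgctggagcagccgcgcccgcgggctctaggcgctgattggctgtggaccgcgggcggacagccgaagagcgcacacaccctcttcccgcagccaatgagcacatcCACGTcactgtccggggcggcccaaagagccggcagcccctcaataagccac
*Aldoa*, chr7:126799255-126799504, minus strand: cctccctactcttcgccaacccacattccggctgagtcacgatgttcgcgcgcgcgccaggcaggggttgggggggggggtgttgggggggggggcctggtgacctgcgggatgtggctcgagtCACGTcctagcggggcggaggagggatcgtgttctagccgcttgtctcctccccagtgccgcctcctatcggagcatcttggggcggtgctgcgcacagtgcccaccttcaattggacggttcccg
*Pgk1*, chrX:106186850-106187099, plus strand: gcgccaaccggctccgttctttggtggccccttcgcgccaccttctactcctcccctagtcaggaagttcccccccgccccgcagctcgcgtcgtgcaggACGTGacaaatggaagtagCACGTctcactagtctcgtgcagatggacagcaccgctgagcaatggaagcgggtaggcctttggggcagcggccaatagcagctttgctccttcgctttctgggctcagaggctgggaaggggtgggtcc
*Ldha*, chr7:46845554-46845803, plus strand: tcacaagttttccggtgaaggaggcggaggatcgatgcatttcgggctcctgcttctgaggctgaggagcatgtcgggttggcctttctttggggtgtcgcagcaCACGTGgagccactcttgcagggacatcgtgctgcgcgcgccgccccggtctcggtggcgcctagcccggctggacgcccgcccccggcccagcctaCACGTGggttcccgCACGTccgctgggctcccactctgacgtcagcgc
None of these 5 windows overlaps an exon on its own strand in GENCODE release M21. The windows of *Hk1*, *Hk2* and *Pgk1* end at the base before the annotated gene, and those of *Aldoa* and *Ldha* lie in an intron of longer transcripts. The *Hk1* window holds no marked motif, whereas *Hk2* and *Pgk1* hold 2 each, *Aldoa* holds 1 and *Ldha* holds 5 matches over both strands. *Hk1*, *Aldoa* and *Ldha* have further RefSeq starts, so that their counts depend on the start shown. The other windows of *Hk1* and *Ldha* hold 0 matches of ACGTG, and those of *Aldoa* hold 0 and 1. Across all RefSeq starts of the enzymes, some of which overlap each other, ACGTG was present in 6 of 17 such windows of 250 bases (35.3%). This compares with 16.6% of 32851 windows of the same length in the mouse promoter table. Counted by gene, it was present in 5 of 10 enzymes and in 4998 of 27025 genes. GCGTG was present in 8 of 17 windows (47.1%) compared with 28.2% of all windows, and in 6 of 10 enzymes compared with 8338 of 27025 genes. These matches describe the letters only and are not measurements of binding.

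The authors deposited log2(value + 1) for each gene and library and did not name the linear unit, so that levels are compared between libraries and not between genes, and the number of reads behind a value is unknown. With the log2 undone, libraries summed to between 690499 and 855404. The targeted gene, listed as *Serpinh1*, had log2 values of 6.28, 6.10 and 7.60 in the controls and 6.87, 6.67 and 6.66 in the Hsp47-deleted libraries, and was thus not lower in the libraries labelled Hsp47-deleted when all controls are taken. Within the second run each Hsp47-deleted library lay below control replicate 2, with a difference of -0.87. The study reported efficient deletion of the Hsp47 protein in sorted EGFP+ cells by Western blotting. Groups are called by their labels throughout. Genes of the mitochondrial genome made up 29.4%, 23.5% and 28.0% of the summed linear values in the controls, against 7.17%, 7.23% and 4.70% in the Hsp47-deleted libraries. Fibroblast markers were abundant in all libraries, with linear sums over the 11 genes of 9494 to 12800 in controls and 15390 to 17030 in Hsp47-deleted libraries. Among them *Postn*, whose locus drives the Cre, had log2 values of 5.87, 5.86 and 6.12 in controls and of 10.22, 10.50 and 10.36 in Hsp47-deleted libraries. Sums of markers of other cells overlapped between the groups for cardiomyocytes (52.7 to 299 in controls and 183 to 299 in Hsp47-deleted libraries), endothelial cells (102 to 296 and 184 to 282), erythroid cells (20.4 to 857 and 218 to 476) and mural cells (169 to 294 and 129 to 194). Leukocyte markers did not overlap, at 39.6 to 88.2 and 98.1 to 128, and 1 of their 10 genes was listed at 0 in all libraries. These marker sums are of the values as deposited, and whether the leukocyte sums stay apart under another scaling was not tested. In such sorted bulk samples, fewer cells of a type and less RNA per cell cannot be told apart.

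In the comparison of Hsp47-deleted with control libraries, all 10 enzymes had a positive log2 fold change, as did 11250 of the 15109 genes tested. Among the enzymes the differences were largest in *Pfkl*, *Hk1*, *Pkm* and *Aldoa* and smallest in *Hk2*, *Gapdh* and *Pgk1*. No enzyme passed a Benjamini-Hochberg (BH)-adjusted p under 0.05 in limma, a threshold that 0.245% of the 15109 genes tested passed. At an unadjusted p under 0.05, 4 enzymes were higher (*Hk1*, *Pfkl*, *Aldoa* and *Pkm*), where 14.5% of all genes tested were higher, and 0 were lower, where 0.755% of all genes were. Values did not overlap between the groups for 4 enzymes, all higher (*Hk1*, *Pfkl*, *Pfkp* and *Pkm*), compared with 18.3% of all genes higher and 1.5% lower without overlap. The median log2 fold change over the 10 enzymes was 0.44, beside 0.36 over all genes tested, a difference of 0.086. The count of 4 at an unadjusted p under 0.05 was 0 without control replicate 3, 1 without control replicate 4 or Hsp47-deleted replicate 2, and 2 without Hsp47-deleted replicate 3. The share of all genes at that threshold is not given for these fits, so that the counts cannot be set beside it. With the median of all genes at 0.36 and not at 0, the sign of small differences depended on the scaling. With libraries centred on the median, with quantile normalization, or with libraries rescaled to the genes outside the mitochondrial genome and pseudogenes, 5 enzymes stayed positive (*Hk1*, *Pfkl*, *Pfkp*, *Aldoa* and *Pkm*) and 5 became negative (*Hk2*, *Gapdh*, *Pgk1*, *Eno1* and *Ldha*). Under each of these 3 scalings 0 enzymes were higher without overlap, so that the separation of *Hk1*, *Pfkl*, *Pfkp* and *Pkm* described below holds for the values as deposited. The median of all genes was -0.060, -0.048 and -0.12 under these scalings, and the share of all genes without overlap under them is not given.

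**Figure D1:**
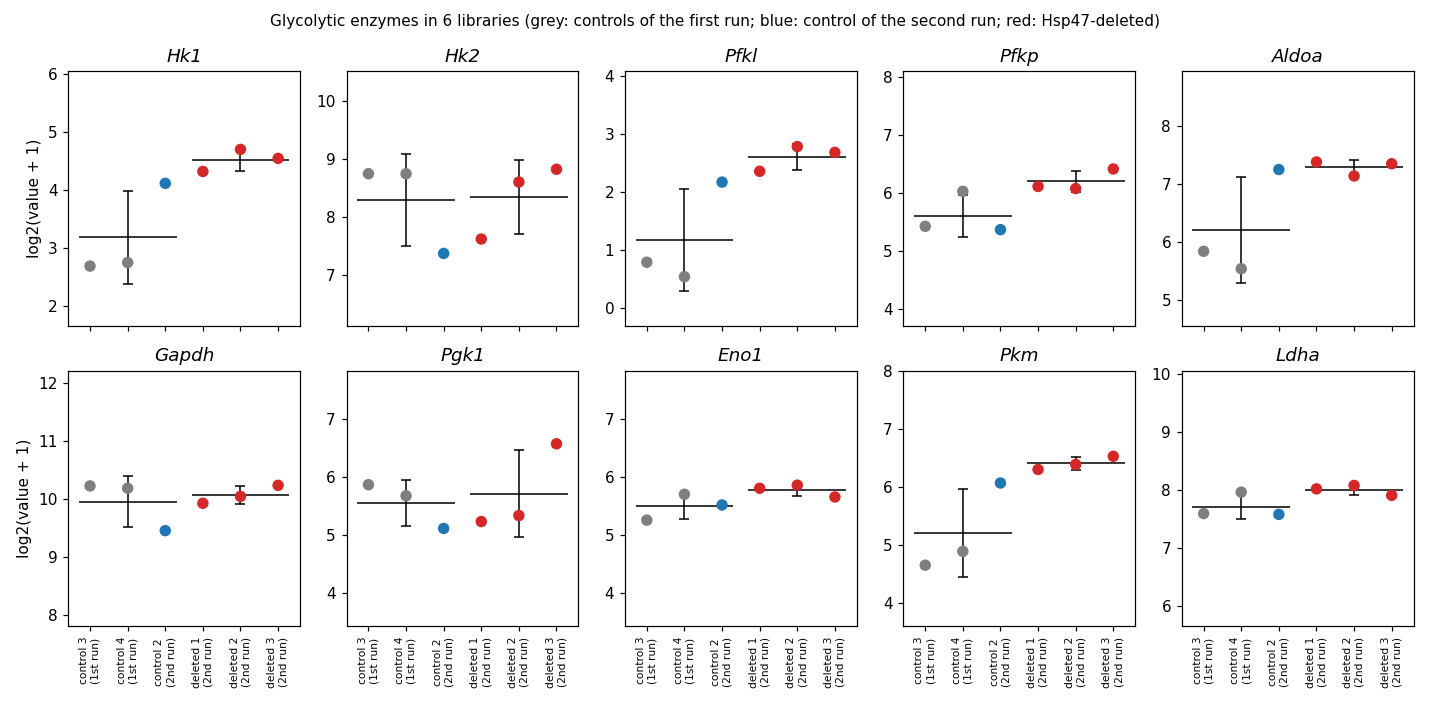
Log2(value + 1) of the 10 glycolytic enzymes in each of the 6 libraries, with the mean (horizontal line) and SD (bar) of each group of 3. Grey points are controls of the first run, blue points the control of the second run and red points Hsp47-deleted libraries. All panels span the same range of log2 units. In *Hk1*, *Pfkl*, *Aldoa* and *Pkm* the blue point lies nearer to the red points than to the grey ones. Over all genes tested, control replicate 2 had a Pearson r of 0.87 to 0.94 with the Hsp47-deleted libraries. With control replicates 3 and 4 it was 0.83 and 0.76.

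The hexokinases catalyze the first step, and *Hk1* and *Hk2* encode isoforms that bind to mitochondria. *Hk1* (chr10:62268855-62379908) had log2 values of 2.69, 2.75 and 4.12 in the controls and 4.32, 4.70 and 4.54 in the Hsp47-deleted libraries. The first-run controls were lowest, control replicate 2 lay just under the Hsp47-deleted libraries, and the groups did not overlap. The group means were 3.19 ± 0.81 and 4.52 ± 0.19 (SD, n = 3 each), a log2 fold change of 1.34 (SE 0.43, limma, unadjusted p = 0.0155, BH-adjusted p = 0.283). Against control replicate 2 alone the difference was 0.41. *Hk2* (chr6:82725025-82774454), the isoform induced by hypoxia and growth signals, behaved otherwise, with 8.74, 8.74 and 7.37 in the controls and 7.62, 8.60 and 8.82 in the Hsp47-deleted libraries. Here control replicate 2 and Hsp47-deleted replicate 1 were low, the other 4 libraries lay together, and the groups overlapped. The fold change was 0.061 (SE 0.50, limma, BH-adjusted p = 0.962), which turned to -0.35 with centring and -0.49 with quantile normalization, and it was 0.98 against control replicate 2 alone.

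The phosphofructokinases form fructose 1,6-bisphosphate, the step that commits sugar to glycolysis, and are encoded by *Pfkl* (liver type), *Pfkp* (platelet type) and *Pfkm* (muscle type). *Pfkl* (chr10:77986947-78010083) had low values throughout, at 0.79, 0.54 and 2.17 in the controls and 2.36, 2.78 and 2.68 in the Hsp47-deleted libraries. In linear values this was 0.73, 0.46 and 3.50 in the controls and 4.12, 5.88 and 5.42 in the Hsp47-deleted libraries. The first-run controls again stood apart below the other 4 libraries, and the groups did not overlap. The group means were 1.17 ± 0.88 and 2.61 ± 0.22 (SD, n = 3 each), a fold change of 1.44 on the log2 scale (SE 0.47, limma, unadjusted p = 0.0167, BH-adjusted p = 0.283), and the difference from control replicate 2 alone was 0.44. *Pfkp* (chr13:6579768-6648777) had 5.43, 6.03 and 5.37 in the controls and 6.12, 6.08 and 6.42 in the Hsp47-deleted libraries. The gap between the highest control and the lowest Hsp47-deleted library was narrow, and the groups did not overlap. Its fold change was 0.59 (SE 0.30, limma, unadjusted p = 0.0882, BH-adjusted p = 0.381), and this was the one enzyme among those without overlap whose difference was larger against control replicate 2 alone, at 0.83. *Pfkm*, which is not among the 10 enzymes, had 1.33, 0.80 and 2.71 in controls and 2.85, 2.83 and 1.74 in Hsp47-deleted libraries, with overlap (fold change 0.86, limma BH-adjusted p = 0.469, and -0.24 with run as a covariate).

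*Aldoa* (chr7:126795234-126800751) encodes the aldolase of muscle and most other tissues. Its log2 values were 5.84, 5.54 and 7.25 in the controls and 7.38, 7.14 and 7.35 in the Hsp47-deleted libraries. Control replicate 2 lay inside the range of the Hsp47-deleted libraries, so that the groups overlapped, and the first-run controls lay more than 1 log2 unit below. On the linear scale the first-run controls held 56.5 and 45.6, and the other 4 libraries between 140 and 166. The group means were 6.21 ± 0.91 and 7.29 ± 0.13 (SD, n = 3 each) and the fold change was 1.08 (SE 0.46, limma, unadjusted p = 0.0470, BH-adjusted p = 0.324), whereas the difference from control replicate 2 alone was 0.040.

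*Gapdh* (chr6:125161715-125166467) encodes the dehydrogenase that makes 1,3-bisphosphoglycerate, and was the gene to which the study normalized its qRT-PCR. Its values were 10.22, 10.18 and 9.45 in the controls and 9.92, 10.04 and 10.23 in the Hsp47-deleted libraries. Control replicate 2 was lowest and the other 5 libraries lay between 9.92 and 10.23. The groups overlapped, with means of 9.95 ± 0.43 and 10.06 ± 0.15 (SD, n = 3 each) and a fold change of 0.11 (SE 0.34, limma, BH-adjusted p = 0.887) that turned to -0.30 with centring, -0.36 with quantile normalization and -0.45 with rescaling.

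Reads of *Gapdh* can be split with near-identical copies, since 44 other rows of the table are annotated as its pseudogenes or align to it at 95% identity or more over at least 80% of their length. Together these copies held 21.6%, 19.0% and 14.1% of the summed value of *Gapdh* and copies in the controls and 4.95%, 5.93% and 5.24% in the Hsp47-deleted libraries. The share was higher in every control library, without overlap, and control replicate 2 stood nearer to the other controls than to the Hsp47-deleted libraries of its own run. In the controls most of it lay in *Gm13394*, a copy on chromosome 2 with 99.9% identity, which had log2 values of 7.96, 7.78 and 6.14 in the controls and 4.10, 4.97 and 3.92 in the Hsp47-deleted libraries. Its fold change was -2.96 (SE 0.54, limma, unadjusted p = 0.000624, BH-adjusted p = 0.108), and -1.81 against control replicate 2 alone. *Gm12033*, a copy on chromosome 11 with 99.9% identity, had 6.19, 5.41 and 4.95 in the controls and 3.74, 3.91 and 4.74 in the Hsp47-deleted libraries, again without overlap (fold change -1.39, limma, BH-adjusted p = 0.282). With all copies added to *Gapdh*, its own fold change was -0.097 (limma, BH-adjusted p = 0.911). The share of the copies differed between the groups in the same direction as that of mitochondrial genes, and whether either share bears on the other was not tested.

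**Figure D2:**
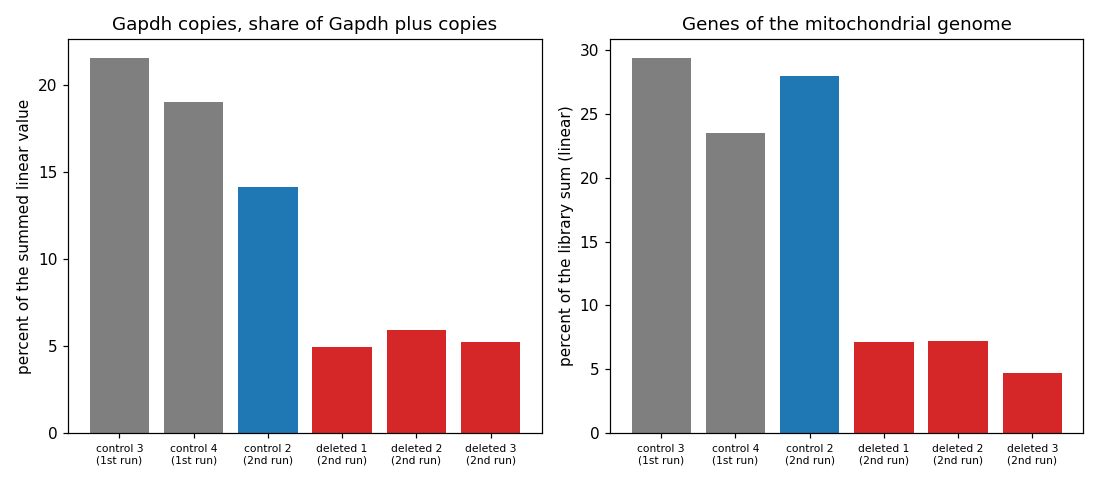
Left, summed linear value of the 44 *Gapdh* copies as a percent of *Gapdh* plus copies in each library. Right, genes of the mitochondrial genome as a percent of each library's summed linear value. Grey bars are first-run controls, blue bars the second-run control and red bars Hsp47-deleted libraries. In both panels each of the 3 controls stands above each Hsp47-deleted library.

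*Pgk1* (chrX:106187100-106203699) encodes the kinase of the first ATP-forming step. It had 5.86, 5.67 and 5.11 in the controls and 5.23, 5.33 and 6.57 in the Hsp47-deleted libraries. As deposited, Hsp47-deleted replicate 3 stood above every other library, by 0.70 over the next highest, and the groups overlapped (fold change 0.16, SE 0.43, limma, BH-adjusted p = 0.873). With rescaling it had 6.24, below control replicate 3 at 6.345. Without Hsp47-deleted replicate 3 the fold change was -0.27, and it was -0.25 with all libraries centred, -0.18 with quantile normalization and -0.40 with rescaling. *Pgk1-rs7*, a near-identical copy, was read together with a further copy as 0% of the summed *Pgk1* signal in the controls and as 1.71% to 5.05% in the other group. *Eno1* (chr4:150236721-150248879), the enolase of most tissues, had 5.26, 5.70 and 5.52 in the controls and 5.81, 5.86 and 5.66 in the Hsp47-deleted libraries, with an overlap between control replicate 4 and Hsp47-deleted replicate 3. Its fold change was 0.28 (SE 0.27, limma, BH-adjusted p = 0.629), close to the median of all genes, and turned to -0.13 with centring and -0.28 with rescaling. A pair of copies (99.5% identity or more) held 4.42%, 2.93% and 19.5% of the summed *Eno1* signal in the controls and 21.6%, 13.8% and 13.1% in the Hsp47-deleted libraries, so that this share was low in both first-run controls and high in all libraries of the second run.

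*Pkm* (chr9:59656368-59679375) encodes pyruvate kinase, whose alternative exons give the M1 and M2 isoforms that a value per gene does not separate. Its log2 values were 4.65, 4.89 and 6.07 in the controls and 6.30, 6.39 and 6.53 in the Hsp47-deleted libraries. The first-run controls lay far below, control replicate 2 lay just below the Hsp47-deleted libraries, and the groups did not overlap. The group means were 5.21 ± 0.76 and 6.41 ± 0.11 (SD, n = 3 each), with a fold change of 1.20 (SE 0.41, limma, unadjusted p = 0.0185, BH-adjusted p = 0.284) and a difference of 0.34 against control replicate 2 alone. *Ldha* (chr7:46841475-46855627), which makes lactate, had 7.60, 7.97 and 7.58 in the controls and 8.02, 8.08 and 7.91 in the Hsp47-deleted libraries. As deposited, it had the smallest SD among the 10 enzymes in both groups (0.22 and 0.086), and control replicate 4 lay above Hsp47-deleted replicate 3. Its fold change was 0.29 (SE 0.28, limma, BH-adjusted p = 0.624), below the median of all genes, and turned to -0.13 with centring and -0.28 with quantile normalization and with rescaling.

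The controls of the first and second sequencing runs differed at an unadjusted p under 0.05 in limma for 6 of the 10 enzymes, though none passed the BH-adjusted threshold. Within the controls, and with the group in the model, 4 enzymes were higher in the second run at an unadjusted p under 0.05 in limma, where 17.7% of all genes were. These were *Aldoa* by 1.56 (BH-adjusted p = 0.0535), *Pfkl* by 1.50 (BH-adjusted p = 0.0902), *Hk1* by 1.40 (BH-adjusted p = 0.0816) and *Pkm* by 1.30 (BH-adjusted p = 0.0792) on the log2 scale in limma. They were the same 4 enzymes that had an unadjusted p under 0.05 in the comparison of the groups, which shares its control libraries with this one. *Hk2* and *Gapdh* were lower in control replicate 2, with differences of -1.37 and -0.75 in limma, where 8.81% of all genes were lower. The second run held 1 control, so that a difference between runs and a deviation of control replicate 2 alone cannot be told apart. *Hk2* in Hsp47-deleted replicates 1, 2 and 3 of that run was 7.62, 8.60 and 8.82, against 8.74 in both first-run controls. *Gapdh* was 9.92, 10.04 and 10.23 in these Hsp47-deleted libraries, against 10.22 and 10.18 in control replicates 3 and 4. Summed markers of cardiomyocytes (105 and 52.7 in control replicates 3 and 4, and 183 to 299 in the 4 libraries of the second run), of endothelial cells (166 and 102, against 184 to 296) and of erythroid cells (113 and 20.4, against 218 to 857) were also lower in both first-run controls, and their part in the enzymes' values was not tested.

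With sequencing run as a covariate, which rests the group difference on control replicate 2, 0 enzymes were higher and 0 lower at an unadjusted p under 0.05 in limma, compared with 5.46% and 1.27% of all genes. All 10 differences were still positive, with a median of 0.43 beside 0.29 for all genes. The share of all genes that were positive in this fit is not given. The order changed, so that *Hk2* (0.98), *Pfkp* (0.83), *Gapdh* (0.61) and *Pgk1* (0.60) now came first and *Aldoa* (0.040) last. Without control replicate 2, on the other hand, all controls were of the first run and all Hsp47-deleted libraries of the second, so that run and group cannot be told apart. In that comparison *Hk1* (1.80), *Pfkl* (1.94), *Aldoa* (1.60) and *Pkm* (1.63) passed the BH-adjusted threshold in limma, 4 enzymes higher where 16.4% of all genes were.

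**Figure D3:**
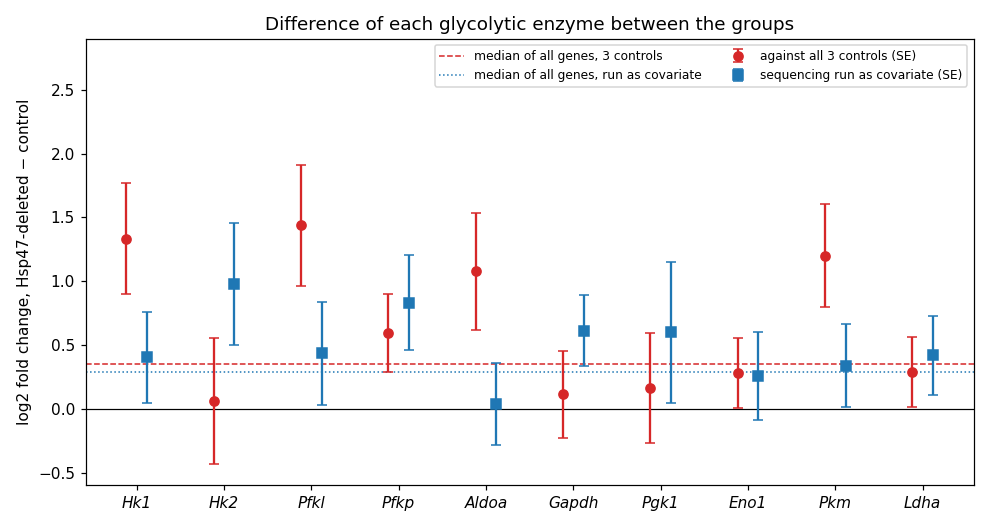
Log2 fold change of each enzyme, Hsp47-deleted minus control, with its SE as the bar. Red circles are the fit with all 3 controls and blue squares the fit with sequencing run as a covariate. The dashed and dotted lines give the median of all genes tested in each fit, 0.36 and 0.29. *Hk1*, *Pfkl*, *Aldoa* and *Pkm* lie at 1.08 or more in the first of these fits and at 0.44 or less in the other, and *Hk2* lies at 0.061 and 0.98.

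Differences of log2(value + 1) between related genes of the same library depend on that library's scale only through the pseudocount, most for low values, and 11 such balances were compared between the groups with an exact two-sided permutation test over libraries, in which 3 against 3 cannot give a p under 0.10. *Slc16a3* encodes MCT4, the carrier that exports lactate from glycolytic cells, and *Slc16a1* encodes MCT1, which moves lactate in either direction. The log2 difference of *Slc16a3* from *Slc16a1* was -0.86, -1.88 and -0.51 in the controls and 0.38, 0.87 and -0.26 in the Hsp47-deleted libraries. All Hsp47-deleted libraries lay above all controls, by 1.42 between the means and by 0.84 against control replicate 2 alone (exact permutation p = 0.10, BH-adjusted over the 11 balances p = 0.55). The same held for *Eno2*, the neuronal enolase, relative to *Eno1*, at -2.78, -3.47 and -2.96 in the controls and -2.42, -2.16 and -2.48 in the Hsp47-deleted libraries (difference 0.72, exact permutation p = 0.10, BH-adjusted p = 0.55). *Hk2* relative to *Hk1* was 6.05 and 5.99 in control replicates 3 and 4 but 3.25 in control replicate 2, and 3.30, 3.90 and 4.27 in the Hsp47-deleted libraries. The mean difference of -1.27 (exact permutation p = 0.40) thus came from the first-run controls, and the difference from control replicate 2 alone was 0.57. *Pfkp* relative to *Pfkl* had the same form (-0.85, exact permutation p = 0.40, and 0.40 against control replicate 2 alone). The other 7 balances overlapped between the groups, *Ldhb* relative to *Ldha* and *Aldoc* relative to *Aldoa* among them.

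**Figure D4:**
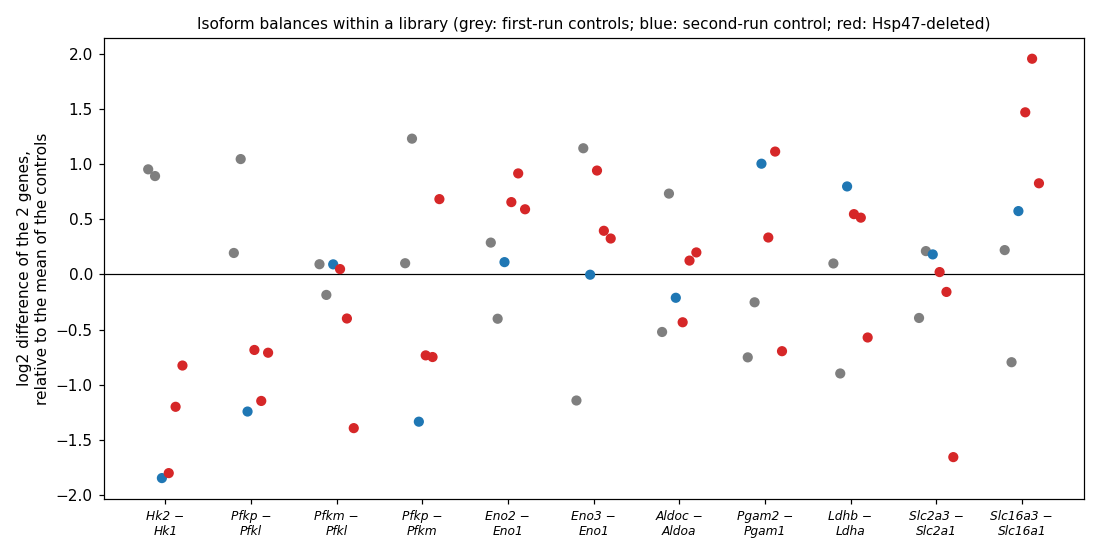
Log2 difference between related genes within each library, relative to the mean of the 3 controls, for the 11 balances compared. Grey points are first-run controls, blue points the second-run control and red points Hsp47-deleted libraries. For *Slc16a3* against *Slc16a1* and *Eno2* against *Eno1* all 3 red points lie above the grey and blue points, and for *Hk2* against *Hk1* the blue point lies with the red ones.

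Of the other genes of glycolysis (20 listed, 16 tested), 2 were higher at an unadjusted p under 0.05 and 0 lower, with a median log2 fold change of 0.60. Here and in the lists that follow, the shares of all genes tested were 14.5% higher and 0.755% lower, with a median of 0.36. *Gpi1*, which converts glucose 6-phosphate to fructose 6-phosphate, had 4.71, 4.65 and 5.96 in the controls and 6.55, 6.58 and 7.01 in the Hsp47-deleted libraries. These values did not overlap, and the fold change was 1.61 (SE 0.41, limma, unadjusted p = 0.00466, BH-adjusted p = 0.249), or 0.76 against control replicate 2 alone and 1.05 to 1.22 under the 3 scalings. *Eno2* had 2.47, 2.23 and 2.56 in the controls and 3.39, 3.70 and 3.18 in the Hsp47-deleted libraries. Its controls of both runs lay together, and its fold change of 1.00 (SE 0.31, limma, unadjusted p = 0.0117, BH-adjusted p = 0.282) was 0.86 against control replicate 2 alone and 0.51 to 0.59 under the 3 scalings. *Pgam1*, the mutase between the steps of *Pgk1* and *Eno1*, also had no overlap as deposited (fold change 0.77, limma BH-adjusted p = 0.345, and 0.21 with rescaling), while *Tpi1*, which interconverts the triose phosphates, did overlap (0.61, limma BH-adjusted p = 0.463, and 0.066 with rescaling).

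Among 11 carriers of glucose and lactate (9 tested), 1 was higher at an unadjusted p under 0.05 and 0 lower, and the median was 0.062. This was *Slc16a3*, at 3.37, 2.76 and 2.91 in the controls and 3.88, 4.62 and 4.45 in the Hsp47-deleted libraries, without overlap and with controls of both runs together. Its fold change was 1.31 (SE 0.34, limma, unadjusted p = 0.00506, BH-adjusted p = 0.252), and 1.41 against control replicate 2 alone. It was smaller with centring (0.89), quantile normalization (0.90) and rescaling (0.78). *Slc2a1*, the GLUT1 glucose carrier, had 6.18, 6.71 and 5.29 in the controls and 5.68, 6.53 and 7.66 in the Hsp47-deleted libraries. Its groups overlapped, with Hsp47-deleted replicate 3 highest and control replicate 2 lowest (fold change 0.57, limma BH-adjusted p = 0.639). *Slc2a3* and *Slc16a1* had fold changes of -0.030 and -0.11 (limma BH-adjusted p = 0.979 and 0.920), both of which were positive with run as a covariate (0.56 and 0.57). *Slc2a8*, an intracellular glucose carrier, had a fold change of 0.99 (limma BH-adjusted p = 0.480) that turned to -0.61 with run as a covariate.

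The genes that set fructose 2,6-bisphosphate and the entry of pyruvate into mitochondria (16 tested) had a median of 0.39, with 2 higher at an unadjusted p under 0.05 and 0 lower. *Pdk4*, a kinase that inhibits pyruvate dehydrogenase, had 1.63, 1.92 and 2.94 in the controls and 3.18, 3.58 and 3.95 in the Hsp47-deleted libraries, without overlap (fold change 1.41, SE 0.43, limma BH-adjusted p = 0.282; 0.63 against control replicate 2 alone). *Mpc1*, a subunit of the mitochondrial pyruvate carrier, had 3.40, 3.17 and 5.14 in the controls and 5.12, 5.44 and 5.01 in the Hsp47-deleted libraries, so that control replicate 2 lay within the other group (fold change 1.28, limma BH-adjusted p = 0.317; 0.047 against control replicate 2 alone). *Pfkfb3*, *Pfkfb4* and *Pdk1* had fold changes of 0.38, 0.15 and 0.40 (limma BH-adjusted p = 0.629, 0.858 and 0.635), and all of them were negative with run as a covariate or with centring.

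In the branches from glycolysis (21 tested) 1 gene was higher at an unadjusted p under 0.05 and 0 lower, with a median of 0.24. It was *Pygb*, a glycogen phosphorylase (fold change 1.25, limma BH-adjusted p = 0.321; 0.14 against control replicate 2 alone). Of 7 genes of the steps by which gluconeogenesis bypasses glycolysis, some of which also serve other pathways, 2 were tested, *G6pc3* (1.16, limma BH-adjusted p = 0.321; 0.13 against control replicate 2 alone) and *Pck2* (0.45, limma BH-adjusted p = 0.742, and -0.016 with quantile normalization). The tricarboxylic acid cycle, which oxidizes the acetyl group made from pyruvate, had 17 genes tested with a median of 0.52, 2 higher at an unadjusted p under 0.05 and 0 lower. They were *Sdha*, the catalytic subunit of succinate dehydrogenase (fold change 1.17, limma BH-adjusted p = 0.281; 0.67 against control replicate 2 alone), and *Mdh2*, the mitochondrial malate dehydrogenase (1.34, limma BH-adjusted p = 0.284; 0.33). Hypoxia-inducible factors, their hydroxylases and hypoxia-induced genes outside glycolysis (20 tested) had a median of 0.50, with 1 higher at an unadjusted p under 0.05 and 0 lower. This was *Egln2*, a prolyl hydroxylase that marks HIF subunits for degradation (fold change 1.20, limma BH-adjusted p = 0.291; 0.65 against control replicate 2 alone), while *Adm*, the adrenomedullin precursor, had 0.71 (limma BH-adjusted p = 0.334; 0.41 against control replicate 2 alone). *Hif1a* itself had 6.28, 6.36 and 5.18 in the controls and 5.00, 5.82 and 6.50 in the Hsp47-deleted libraries, with full overlap (fold change -0.17, limma BH-adjusted p = 0.884, and 0.59 with run as a covariate). In none of these lists did a gene pass the BH-adjusted threshold.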

How the data were processed

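RNA from sorted EGFP+ cells was amplified (Ovation RNA-Seq System v2), made into Nextera XT libraries and sequenced on a HiSeq2500 by the authors, who deposited 1 table of log2(value + 1), with 1 column for each of 6 libraries. The study's methods name AltAnalyze, and the submitters' processing notes name kallisto and mm10. The linear unit is not named and depth is unknown. Columns of the authors' own comparison (fold changes and p-values) and group means were not used.

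Log2 values were used as deposited, with their pseudocount of 1. The 15109 genes with a linear mean of at least 1 entered 1 fit of limma 3.58.1 under R 4.3.3, with lmFit and then eBayes (mean-variance trend), without covariates and with Benjamini-Hochberg adjustment over all of them. The fit was tested on simulated data. All 10 enzymes passed the filter, and 13878 genes did not. A fold change on the log2(value + 1) scale understates that of genes with low values, such as *Pfkl*. Copies were found with minimap2 2.31 among GENCODE M21 transcripts (GRCm38) or by description. Promoter windows came from RefSeq. No pair of libraries shared more than 227 identical values.

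The enzymes, the other lists and the tests were chosen with earlier results of these data known. Named besides the 10 enzymes are *Serpinh1*, 14 genes of carriers, other steps and regulators listed by hand, and the 2 genes with the smallest p in each other list. *Postn*, *Gm13394*, *Gm12033*, *Pgk1-rs7* and the genes in the closing section that meet no such rule were named after their values were seen. Alternatives were sequencing run as a covariate, the second run alone, the replicate number as a block, other filters (none, or a mean of 5) and pseudocounts (0.1 and 5), centring on the median, quantile normalization, rescaling to genes outside the mitochondrial genome and pseudogenes, no trend, robust estimation, summing with copies and leaving out each library.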

Additional observations from a re-analysis of the deposited data

How the results depend on the processing

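The number of enzymes higher at an unadjusted p under 0.05 (4 in limma) was 0 with sequencing run as a covariate, 2 with a mean of at least 5, 2 with centring on the median, 1 with quantile normalization and 0 with rescaling outside the mitochondrial genome and pseudogenes, and ran from 0 (without control replicate 3) to 4 when each library was left out. It was 1 without control replicate 4, also 1 without Hsp47-deleted replicate 2, and 2 without Hsp47-deleted replicate 3. Apart from the fit with run as a covariate, the share of all genes at this threshold is not given under these settings. Whether the lower counts are particular to the enzymes was not tested. The number with a BH-adjusted p under 0.05 ran from 0 to 4, the latter without control replicate 2. The median fold change (0.44) was 0.026 with centring, 0.11 with quantile normalization and -0.12 with rescaling. The median of all genes tested (0.36) was -0.060, -0.048 and -0.12 under the same scalings. Under each of these scalings 5 enzymes were positive and 0 were higher without overlap, and with rescaling 1 (*Eno1*) was lower without overlap. The share of all genes without overlap under these scalings is not given. The cause of the changes was not tested.

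The replicate block left 1 enzyme (*Hk1*, unadjusted p = 0.0436) higher at p under 0.05, and turned *Slc2a3* to 0.56, *Slc16a1* to 0.41, *Ldhb* to -0.071, *Hif1a* to 0.43 and *Serpinh1* to -0.28. Same-numbered libraries had deviations from their group means that correlated by 0.16 and 0.23 over 2 pairs, and the labels tie no number across the groups.

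Signs also turned with run as a covariate in *Slc2a3* (0.56), *Slc16a1* (0.57), *Hif1a* (0.59), *Pfkfb3* (-0.10), *Pfkfb4* (-0.071), *Pdk1* (-0.10), *Pfkm* (-0.24), *Ldhb* (-0.21), *Slc2a8* (-0.61) and *Serpinh1* (-0.87). With centring they turned in *Hk2* (-0.35), *Gapdh* (-0.30), *Pgk1* (-0.25), *Eno1* (-0.13), *Ldha* (-0.13), *Pfkfb3* (-0.032), *Pfkfb4* (-0.26), *Pdk1* (-0.018) and *Serpinh1* (-0.34). With quantile normalization they turned in *Hk2* (-0.49), *Gapdh* (-0.36), *Pgk1* (-0.18), *Eno1* (-0.045), *Ldha* (-0.28), *Pfkfb4* (-0.26), *Pdk1* (-0.011), *Pck2* (-0.016) and *Serpinh1* (-0.27). Rescaling turned *Hk2* (-0.51), *Gapdh* (-0.45), *Pgk1* (-0.40), *Eno1* (-0.28), *Ldha* (-0.28), *Pfkfb3* (-0.15), *Pfkfb4* (-0.32), *Pdk1* (-0.0049), *Ldhb* (-0.051), *Pck2* (-0.047) and *Serpinh1* (-0.49), and summing with copies turned *Gapdh* (-0.097). Leaving out each library gave ranges across 0 in *Hk2* (-0.40 to 0.42), *Gapdh* (-0.14 to 0.25), *Pgk1* (-0.27 to 0.40), *Pfkfb4* (-0.11 to 0.38), *Hif1a* (-0.55 to 0.22), *Serpinh1* (-0.21 to 0.54), *Slc2a3* (-0.32 to 0.40), *Slc16a1* (-0.47 to 0.16) and *Pck2* (-0.32 to 0.95).

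Against the second-run control alone, balances moved to 0.57 (*Hk2* against *Hk1*), 0.40 (*Pfkp* against *Pfkl*), 1.07 (*Pfkp* against *Pfkm*) and -0.75 (*Pgam2* against *Pgam1*), and *Aldoc* against *Aldoa* moved to 0.77 with a pseudocount of 0.1. Of the 10 enzymes, *Hk1*, *Pfkl*, *Pfkp*, *Aldoa* and *Pkm* were positive under all alternatives run, apart from the filter at a mean of 5, which *Pfkl* did not pass, with their smallest values at 0.41, 0.44, 0.033, 0.040 and 0.34. The depth behind each value is unknown, and the second run holds 1 control.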

Other observations

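*Vegfa* and *Ndrg1*, chosen from the hypoxia list after their values were seen, were lowest in control replicate 2 and next lowest in Hsp47-deleted replicate 1. They were highest in Hsp47-deleted replicate 3, as were *Hk2*, *Pgk1* and *Slc2a1*, which had the same order as deposited. With rescaling, *Hk2* and *Pgk1* lost this order. They were then lowest in Hsp47-deleted replicate 1 (7.41 and 5.03) and highest in control replicate 3 (9.23 and 6.345). Rescaled values of each library are not given for *Vegfa*, *Ndrg1* and *Slc2a1*. The other genes of the hypoxia list had other orders, with *Bnip3* highest in control replicate 3 (5.14) and *Hif1a* lowest in Hsp47-deleted replicate 1 (5.00). The share of all genes with this order is not given. *Vegfa*, the angiogenic growth factor, had log2 values of 7.22, 7.38 and 5.58 in the controls and 6.10, 6.96 and 8.68 in the Hsp47-deleted libraries. *Ndrg1*, a stress-responsive gene that hypoxia induces, had 7.30, 7.61 and 5.91 in the controls and 6.05, 6.83 and 8.92 in the Hsp47-deleted libraries. Neither passed the threshold between the groups in limma (BH-adjusted p = 0.745 and 0.850). As deposited, 23.5% of all genes tested had their highest value in Hsp47-deleted replicate 3. Of the 10 enzymes, 5 did (*Pgk1*, *Pfkp*, *Pkm*, *Hk2* and *Gapdh*). *Gapdh* and *Hk2* did so by only 0.0048 and 0.076 over the next highest library. With rescaling outside the mitochondrial genome and pseudogenes, none of these 5 was highest in Hsp47-deleted replicate 3. There *Gapdh* then had 9.90, against 10.71 in control replicate 3, and *Pkm* had 6.20, against 6.23 in control replicate 2. The share of all genes highest there under rescaling is not given.

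The serine branch, which starts from the product of *Pgk1*, spanned wide ranges across the libraries. *Phgdh*, its first enzyme, had 3.18, 2.55 and 2.85 in the controls and 3.17, 4.20 and 7.11 in the Hsp47-deleted libraries (fold change 1.97, SE 0.89, limma, BH-adjusted p = 0.340). *Psat1*, the aminotransferase of the next step, had 6.66, 7.71 and 4.20 in the controls and 3.99, 3.95 and 8.14 in the Hsp47-deleted libraries. *Psph*, which completes serine synthesis, had 4.26, 4.74 and 2.42 in the controls and 2.61, 3.03 and 6.73 in the Hsp47-deleted libraries. *Shmt2*, which splits serine in mitochondria, had 4.04, 4.49 and 3.61 in the controls and 4.17, 4.01 and 6.51 in the Hsp47-deleted libraries. In the values as deposited, all of these genes were highest in Hsp47-deleted replicate 3, and in each of them the groups overlapped.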
